A study of Rattus norvegicus with 18 samples.

Results

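The genes described here mark T cells, B cells, plasma cells and natural killer (NK) cells. They are 35 symbols chosen for their role in the identity of these cells, with earlier results of these data known, and each was looked up by symbol in the authors' deposited tables. Of the 35 genes, 24 were listed as changed in ZSF1 obese against ZSF1 lean left ventricle, 24 in ZSF1 obese against WKY, and 0 in ZSF1 lean against WKY. In all, 6588 genes stood in at least 1 of the 3 tables, with 5700, 5709 and 233 genes in these comparisons in turn. The last comparison listed 0.973% of 20972 named protein-coding genes in RefSeq, so its count of 0 is near the share of all genes.

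Polyadenylated RNA was sequenced from the left ventricle of 18 male rats, 6 in each of 3 groups. WKY (Wistar Kyoto) rats served as the wild-type control strain. ZSF1 lean rats are hypertensive, and ZSF1 obese rats combine hypertension with metabolic syndrome and stand for heart failure with preserved ejection fraction (HFpEF). The ZSF1 obese phenotype comes, as background, from inheriting a defective leptin receptor gene from each parent strain, and lean littermates keep a working copy. WKY is a separate strain, so in any comparison with WKY the strain and the disease state differ together. The labels used here state no age, diet or treatment for the rats. Each table lists genes changed 2-fold or more in either direction, with the authors' fold and adjusted p-value (false discovery rate, FDR). Values per rat were not used here, so neither depth nor the overlap between groups can be given, and a gene that is not listed may be unchanged, changed by less than the thresholds, or not detected.

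A T cell recognises antigen through a receptor that signals through the CD3 chains and the zeta chain. The kinase Lck, which docks on the coreceptors CD4 and CD8, phosphorylates these chains, the kinase Zap70 binds to them, and the adaptor Lat passes the signal on. A second signal through Cd28 is needed for full activation of a naive T cell. B cells use an antibody receptor that signals through Cd79a and Cd79b. NK cells and cytotoxic T cells kill through perforin and granzymes. Lymphocytes are a minority among the leukocytes of a healthy heart, where macrophages prevail. Several of the 35 genes (Ptprc, Cd52, Cd53, Cd37, Coro1a, Laptm5 and, in rats, Cd4) are also expressed by macrophages or other myeloid cells.

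In ZSF1 obese against ZSF1 lean hearts, the authors' deposited table had 23 of the 35 genes higher, 1 lower and 11 not listed. Of all 5700 genes in that table, 53.4% were higher. Of 20972 named protein-coding genes in RefSeq, 13.3% were listed as higher and 11.8% as lower, against 65.7% and 2.86% of the 35. These shares include genes that the heart may not express. The folds of the 23 genes ranged from 2.14 to 9.65 with a median of 3.51, and the median of all genes listed as higher was 3.01.

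Against WKY the authors' deposited table again had 23 genes higher, 1 lower and 11 not listed. There 54% of all 5709 listed genes were higher, and 13.5% of the named RefSeq genes were listed as higher and 11.7% as lower. The folds of the 23 genes ranged from 2.13 to 6.54 with a median of 3.78, beside a median of 3.05 for all genes listed as higher. Both comparisons rest on the same 6 obese hearts. Their values are therefore set side by side below, and a gene found in both was not measured anew in the obese rats.

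**Figure D1:**
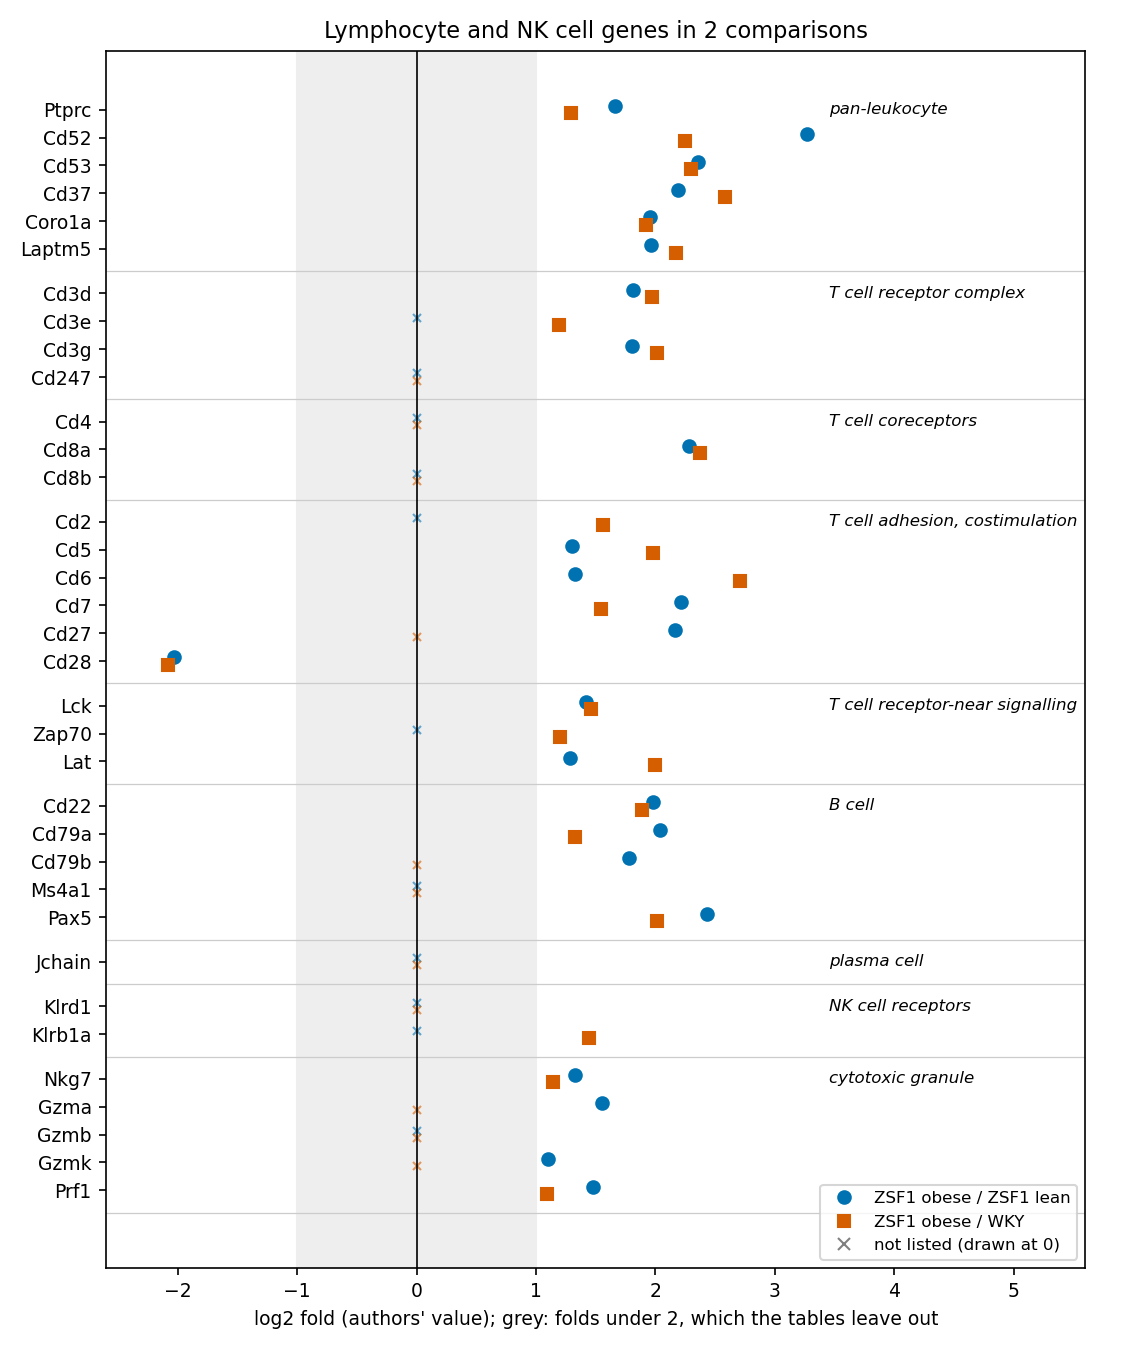
Log2 fold of each of the 35 genes, grouped by role, in obese against lean (circles) and obese against WKY hearts (squares); a cross at 0 marks a gene that the table does not list. Of the 24 genes listed in each comparison, 23 lie to the right of the grey band and Cd28 lies to its left.

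The 6 genes shared by nearly all leukocytes were all listed as higher in both comparisons, with folds of 3.16 to 9.65 against lean and of 2.44 to 5.98 against WKY. Among all named RefSeq genes, the shares listed as higher were 13.3% and 13.5%. Cd52 encodes a short surface glycoprotein of lymphocytes and monocytes. Its level in obese hearts was 9.65 times the lean level (ENSRNOG00000015403, adjusted p = 4.26e-16) and 4.76 times the WKY level (adjusted p = 8.18e-11) in the authors' deposited tables. The first value is the largest fold of any member in that table and ranked 71st among the 3045 genes listed as higher. Coro1a, an actin regulator of leukocytes, had folds of 3.86 (adjusted p = 6.96e-24) and 3.78 (adjusted p = 6.50e-20) against lean and WKY, the smallest adjusted p-values of any member in the authors' deposited tables.

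The tetraspanin genes Cd53 and Cd37, whose products organise receptors in the leukocyte membrane, moved in the same range. In the authors' deposited tables Cd53 had folds of 5.13 and 4.92, and Cd37 had folds of 4.56 and 5.98, against lean and WKY in turn. For Laptm5, a lysosomal membrane protein that lowers the amount of antigen receptor on T and B cells, the authors' deposited tables gave 3.89 and 4.50. Ptprc, which encodes the common leukocyte antigen CD45, a phosphatase that activates Lck, had folds of 3.16 (adjusted p = 9.80e-12) and 2.44 (adjusted p = 3.48e-06) in the authors' deposited tables. In bulk tissue a larger number of leukocytes cannot be told apart from more RNA of these genes per cell.

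Of the 4 genes for signalling chains of the T cell receptor, Cd3d and Cd3g were listed in both comparisons. Cd3g had a fold of 3.48 against lean (ENSRNOG00000015945, adjusted p = 6.93e-05) and of 4.03 against WKY (adjusted p = 4.35e-04) in the authors' deposited tables. Cd3d had a fold of 3.51 (ENSRNOG00000015994, adjusted p = 0.00609) and of 3.92 (adjusted p = 0.0184) in the same authors' deposited tables. Cd3e was listed only against WKY, where the authors' deposited table gave it a fold of 2.28 (adjusted p = 0.0206). The 3 CD3 genes are direct neighbours among named genes in the RefSeq order. Cd247, the zeta chain, was listed in no table. The folds of Cd3d and Coro1a against lean were alike, 3.51 and 3.86, while their adjusted p-values in the authors' deposited table were 0.00609 and 6.96e-24. Without counts or standard errors, a low level cannot be told apart from a wide spread among rats as the source of this gap.

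Among the coreceptors, Cd8a was listed in both comparisons. The authors' deposited tables placed it at 4.86 times the lean level (ENSRNOG00000007178, adjusted p = 7.47e-10) and 5.17 times the WKY level (adjusted p = 1.30e-13). Cd8b, which encodes the partner chain of the CD8 heterodimer of cytotoxic T cells and lies next to Cd8a, was listed in no table. NK cells of rats and some dendritic cells carry CD8 as a dimer of the alpha chain alone. Cd4, the coreceptor of helper T cells, was likewise listed in no table, although its neighbour Lag3, an inhibitory receptor that binds the same ligand, had folds of 3.68 and 2.41 in the authors' deposited tables.

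Of the 6 surface receptors of T cell adhesion and costimulation, 4 were higher and 1 lower in each comparison, and several had unlike folds in both. All named RefSeq genes gave 13.3% higher and 11.8% lower against lean, and 13.5% and 11.7% against WKY. Cd6 and its neighbour Cd5 encode related scavenger-type receptors that dampen T cell receptor signals. Cd6 had a fold of 2.51 against lean (adjusted p = 0.0126) but of 6.54 against WKY (adjusted p = 1.85e-06), the largest of any member in the second of these authors' deposited tables. Cd5 had folds of 2.46 (adjusted p = 0.0335) and 3.94 (adjusted p = 0.00163) in the authors' deposited tables. Cd7, a marker of T and NK cells, went the other way, with 4.63 (adjusted p = 2.60e-07) against lean and 2.91 (adjusted p = 0.00103) against WKY in the authors' deposited tables. These gaps between the comparisons have no standard error and were not tested.

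Cd27, a costimulatory receptor of the tumour necrosis factor family, was listed only against lean, where the authors' deposited table gave a fold of 4.47 (adjusted p = 1.96e-06). For Cd2, an adhesion receptor of T and NK cells, only the authors' deposited table against WKY had a value, 2.95 (adjusted p = 1.43e-09). Being listed in 1 table and not in the other does not show that the 2 comparisons differ.

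Cd28 was the one member listed as lower. In the authors' deposited tables it stood at 0.245 of the lean level (ENSRNOG00000010283, adjusted p = 4.37e-05) and at 0.237 of the WKY level (adjusted p = 1.28e-05). On the log2 scale it fell by 2.03 and by 2.08. Its direct neighbour in the RefSeq gene order, Ctla4, encodes the inhibitory receptor that competes with Cd28 for the ligands Cd80 and Cd86. Ctla4 was higher against lean, where the authors' deposited table gave 5.54 (adjusted p = 0.00203), and was not listed against WKY. Icos, the related receptor of activated T cells, had folds of 4.00 and 2.44 in the authors' deposited tables. The ligand gene Cd80 had folds of 7.01 and 6.41, and Cd86 had 3.32 and 3.92, in the authors' deposited tables.

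The kinase gene Lck had nearly the same fold in both comparisons, 2.68 (ENSRNOG00000009705, adjusted p = 2.47e-09) and 2.75 (adjusted p = 6.28e-05) in the authors' deposited tables. Lat, the membrane adaptor downstream of Zap70, had folds of 2.43 (adjusted p = 4.85e-05) and 4.00 (adjusted p = 6.58e-07) in the authors' deposited tables. Zap70 was listed only against WKY, where the authors' deposited table gave 2.30 (adjusted p = 1.56e-04).

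B cell genes were higher where listed, 4 of 5 against lean and 3 of 5 against WKY. The shares of all named RefSeq genes listed as higher were 13.3% and 13.5%. Pax5, the transcription factor that fixes B cell identity, had folds of 5.39 (adjusted p = 0.00283) and 4.03 (adjusted p = 0.0236) in the authors' deposited tables. Cd22, a sialic acid-binding inhibitory receptor, had folds of 3.94 (ENSRNOG00000024000, adjusted p = 2.13e-08) and 3.71 (adjusted p = 2.61e-07) in the authors' deposited tables. The antibody receptor chain Cd79a had folds of 4.11 (adjusted p = 7.98e-04) and 2.51 (adjusted p = 0.0236), and its partner Cd79b was listed only against lean, at 3.43 (adjusted p = 2.52e-05), in the authors' deposited tables. Ms4a1, which encodes CD20, was listed in no table. Jchain, which joins secreted antibodies and marks plasma cells, was not listed either.

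Genes of the cytotoxic granule were listed as higher for 4 of 5 against lean and 2 of 5 against WKY, at folds of 2.13 to 2.93. Among all named RefSeq genes, 13.3% and 13.5% were listed as higher in these comparisons. Prf1, which encodes the pore-forming protein perforin, had folds of 2.79 (ENSRNOG00000000562, adjusted p = 3.34e-12) and 2.13 (adjusted p = 4.96e-06) in the authors' deposited tables. Nkg7, a granule membrane protein needed for degranulation, had folds of 2.51 (adjusted p = 1.13e-15) and 2.20 (adjusted p = 2.13e-05) in the authors' deposited tables. The neighbouring protease genes Gzma and Gzmk were listed only against lean, for which the authors' deposited table gave 2.93 (adjusted p = 0.0127) and 2.14 (adjusted p = 0.0251). Gzmb was listed under its symbol in no table. A row described as granzyme B but carrying the symbol Gzmbl2 had a fold of 0.406 in obese against WKY hearts (adjusted p = 0.019) in the authors' deposited table. Some granzyme genes have near-identical copies. Whether this affected the reads counted for Gzmb or Gzmbl2 was not tested.

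Of the NK receptors, Klrb1a was listed only against WKY, for which the authors' deposited table gave 2.71 (adjusted p = 3.55e-06). That row carries the symbol Klrb1a and the description of Klrb1b, its neighbour, so the exact gene is uncertain. Klrd1, the partner chain of the NKG2 receptors, was listed in no table. All rows with a symbol starting with Klr or Ly49, a family of lectin-like receptors mostly of NK cells, were counted after the tables had been read. The authors' deposited tables had 6 such rows against lean and 10 against WKY, Klrb1a included, and each of them was higher. Among all listed genes, 53.4% and 54% were higher. Family genes that are not listed, such as Klrd1, are not in these counts, so the counts give no share of the family. Examples are Klrc3, with folds of 2.89 and 4.00, Klri1, with 2.01 and 3.53, and Ly49si1, with 6.96 and 2.58, in the authors' deposited tables. The Klrc3 row carries the description of killer cell lectin like receptor C2, so the exact gene is uncertain there too. Ly49si1 was also lower in lean than in WKY hearts, for which the authors' deposited table gave 0.42 (adjusted p = 2.05e-09). These genes are similar to each other and vary between rat strains, which can shift reads among them, and this was not tested.

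**Figure D2:**
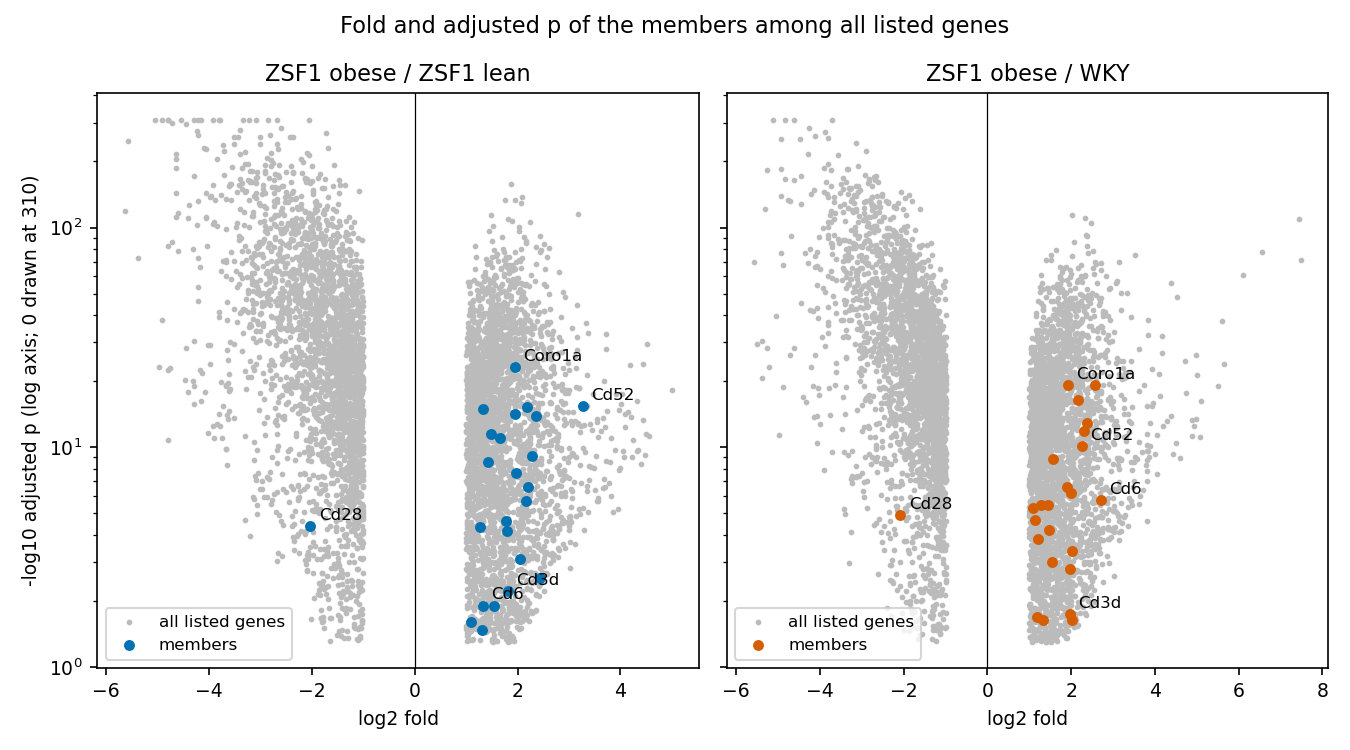
Log2 fold (horizontal) against -log10 of the adjusted p (vertical, log axis) for all listed genes (grey) and the members (coloured) in each obese comparison. The members lie within the cloud of listed genes, from Coro1a at an adjusted p of 6.96e-24 against lean down to T cell genes such as Cd3d near the threshold, with Cd28 alone on the left.

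The median adjusted p of the 23 higher members was 2.60e-07 against lean and 3.55e-06 against WKY, while that of all genes listed as higher was 2.95e-12 and 2.26e-10 in the authors' deposited tables. Leaving out the 7 members named above as also expressed by myeloid cells, 17 of the other 28 were higher and 1 lower in either comparison. The 28 still hold Cd8a, which some dendritic cells carry, so they do not stand for lymphocytes alone. Over all named RefSeq genes, 13.3% were listed as higher against lean and 13.5% against WKY.

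In ZSF1 lean against WKY hearts, 0 of the 35 genes were listed in the authors' deposited table of 233 genes, which covers 0.973% of named RefSeq genes. The adjusted p-values of that table end at 0.000347, whereas those of the obese tables reach 0.0498 and 0.0499. A member with a weaker adjusted p would thus not appear there. For Cd6 the fold against WKY was 2.60 times that against lean, and for Cd52 it was 0.493 times, so the lean and WKY levels of these genes need not be equal. For 79 of the 79 genes in all 3 tables the lean against WKY fold lay nearer to 1 than the ratio of the obese folds; the cause was not tested.

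Promoter windows from RefSeq (GRCr8) were found for 27 of the 35 genes. They were searched, on both strands and over the 250 bases before the transcription start, for short motifs of transcription factors. The ETS-family core AGGAAG (or CTTCCT) was present for 17 of these 27 genes, or 63%, against 29.5% of all 33469 windows. The RUNX core ACCACA (or TGTGGT) was present for 9, or 33.3%, against 14.5% of all windows. The longer PU.1-type motif GAGGAAGT, which contains the ETS core, was present for Cd37, Cd5 and Cd53 (11.1% against 2.04%), and the octamer ATGCAAAT for 0 (against 1.56%). TTTGAA, part of the TCF1 motif, was present for 9 (33.3% against 16.2%), and the SP1 core GGGCGG for 3 (11.1% against 30.5%). A match is a run of letters and not a measured binding site. Lck has 2 windows, and many genes outside the members have several.

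The windows of 5 members are shown as examples, 4 of genes that rose in both comparisons and that of Cd28, the member that fell. Each was chosen so that it ends at the base before the RefSeq gene begins. Capitals mark the ETS core and the RUNX core. Laptm5, Cd5 and Prf1 have 2 ETS cores each and Prf1 has 1 RUNX core. Cd28 has 2 RUNX cores and 0 ETS cores, and Cd8a has 0 of either. Cd52 and Coro1a, which rose in both comparisons, also lack the ETS core, and Lck, Lat, Nkg7 and Prf1, which rose in both, also hold the RUNX core. With only 1 member that fell, a link between these motifs and the direction of change was not tested. Positions are Laptm5 at chr5:148371630-148371879 (plus strand), Cd8a at chr4:104923866-104924115 (plus strand), Cd5 at chr1:216811210-216811459 (minus strand), Prf1 at chr20:29788790-29789039 (plus strand) and Cd28 at chr9:69660066-69660315 (plus strand).
Laptm5: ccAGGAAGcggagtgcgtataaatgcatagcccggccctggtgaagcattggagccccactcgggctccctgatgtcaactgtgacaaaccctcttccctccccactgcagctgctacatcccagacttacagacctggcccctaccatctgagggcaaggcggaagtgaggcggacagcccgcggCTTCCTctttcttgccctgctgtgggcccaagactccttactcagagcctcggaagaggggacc
Cd8a: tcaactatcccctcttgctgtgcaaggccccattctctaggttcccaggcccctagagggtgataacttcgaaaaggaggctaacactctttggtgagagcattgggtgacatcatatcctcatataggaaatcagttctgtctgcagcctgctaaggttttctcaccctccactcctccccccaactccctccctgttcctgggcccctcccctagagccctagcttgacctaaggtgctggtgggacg
Cd5: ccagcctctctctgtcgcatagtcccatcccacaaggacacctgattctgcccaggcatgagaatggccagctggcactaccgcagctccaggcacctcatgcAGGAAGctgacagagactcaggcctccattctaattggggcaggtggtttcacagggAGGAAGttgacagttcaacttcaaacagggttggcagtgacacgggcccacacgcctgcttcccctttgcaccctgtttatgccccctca
Prf1: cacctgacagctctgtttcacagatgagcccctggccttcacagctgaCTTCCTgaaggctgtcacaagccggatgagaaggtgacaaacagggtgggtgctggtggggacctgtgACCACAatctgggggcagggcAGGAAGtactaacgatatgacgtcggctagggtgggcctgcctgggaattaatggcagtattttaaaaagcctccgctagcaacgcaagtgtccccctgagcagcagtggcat
Cd28: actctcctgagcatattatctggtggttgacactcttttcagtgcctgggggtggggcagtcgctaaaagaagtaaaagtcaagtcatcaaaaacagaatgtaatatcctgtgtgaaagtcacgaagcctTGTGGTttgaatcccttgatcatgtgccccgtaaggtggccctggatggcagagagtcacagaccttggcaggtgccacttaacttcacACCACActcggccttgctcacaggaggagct

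Other genes of the same pathways were taken from 9 lists that hold none of the 35 members. For scale, 13.3% of all named RefSeq genes were listed as higher and 11.8% as lower against lean. Against WKY these shares were 13.5% and 11.7%. Of 21 genes of T cell receptor signalling, 10 were higher and 1 lower against lean, and 9 higher and 1 lower against WKY. The adaptor genes Lcp2 and Fyb1 had folds of 3.07 and 6.32 against lean, and Csk, a kinase that restrains Lck, had 2.19 (adjusted p = 2.28e-47), in the authors' deposited table. Nfatc2, a transcription factor activated by T cell receptor calcium signals, was the lower gene, at 0.418 of the lean and 0.312 of the WKY level in the authors' deposited tables. The cells in which Nfatc2 changed were not identified.

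Of 20 genes of costimulation and checkpoints, 9 were higher and 1 lower against lean, and 8 higher and 2 lower against WKY. Tnfrsf4, the costimulatory receptor OX40, had folds of 13.1 (adjusted p = 3.83e-13) and 6.63 (adjusted p = 1.63e-05) in the authors' deposited tables. Slamf1, a self-binding receptor of activated lymphocytes, was lower in both, at 0.283 and 0.363 in the authors' deposited tables. Tnfrsf9, the receptor 4-1BB, was lower against WKY in obese hearts, at 0.285, and in lean hearts, at 0.400, in the authors' deposited tables.

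Of the 9 lists, that of lymphocyte transcription factors held the most lower genes, with 10 higher and 4 lower of 25 against lean and 8 higher and 5 lower against WKY. These small counts of lower genes stand beside 11.8% and 11.7% of all named RefSeq genes listed as lower. Those lower in both included Bcl11b, Tox and Foxp3. Bcl11b, needed for T cell commitment, stood at 0.167 (adjusted p = 1.98e-14) and 0.112 (adjusted p = 4.29e-30) in the authors' deposited tables. Tox, a factor of T cell development and exhaustion, stood at 0.259 and 0.228 in the authors' deposited tables. Foxp3, the factor of regulatory T cells, stood at 0.295 (adjusted p = 4.80e-08) and 0.243 (adjusted p = 2.51e-08) in the authors' deposited tables. Ikzf3 was lower against WKY only, at 0.497 in the authors' deposited table. Which cells of the bulk tissue carry the changes of the genes in this list was not tested.

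On the higher side of the same list were Ebf1, a B cell factor also made in other cells, with folds of 5.03 and 3.84, and Tcf7, which encodes TCF1, with folds of 3.05 and 2.00, in the authors' deposited tables. Spi1, which encodes PU.1 of myeloid and B cells, had folds of 5.54 and 5.43 in the authors' deposited tables. Gata3, the factor of type-2 helper T cells, had folds of 4.99 and 4.41 in the authors' deposited tables.

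Of 25 B and plasma cell genes, 14 were higher and 1 lower against lean, and 11 higher and 1 lower against WKY. The kinase genes Lyn and Syk, which start B cell receptor signalling and also act in myeloid cells, had folds of 2.30 and 4.23 against lean in the authors' deposited table. Tnfsf13, a survival factor for B and plasma cells, had folds of 4.41 and 4.66 in the authors' deposited tables. Pim2, a survival kinase, was the lower gene, at 0.493 and 0.441 in the authors' deposited tables. A row with the symbol Ighm but the description of the epsilon constant region, read after the tables were seen, had a fold of 3.65 against lean and stood at 0.49 in lean against WKY in the authors' deposited tables.

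Of 26 NK and cytotoxic genes, 10 were higher and 0 lower against lean, and 9 higher and 1 lower against WKY. Srgn, the granule proteoglycan, had folds of 4.20 and 5.54, and Tyrobp, a signalling adaptor of NK and myeloid receptors, 6.45 and 5.39, in the authors' deposited tables. Fcgr3a, the antibody receptor CD16, had a fold of 7.36 against lean and stood at 0.30 in lean against WKY in the authors' deposited tables. The neutrophil markers Csf3r, S100a9 and Mmp8 and the receptor Ly49si1 had the same directions in these comparisons. Which cells carry the change of Fcgr3a was not tested. The lower gene against WKY was Ctsc, which encodes the protease that activates granzymes, at 0.476 in the authors' deposited table.

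Of 20 cytokine receptor and cytokine genes of lymphocytes, 5 were higher and 0 lower against lean, and 7 higher and 2 lower against WKY. Il2rg, the receptor chain shared by several lymphocyte cytokines, had folds of 3.16 and 3.25, and Il15, which sustains NK and memory T cells, 3.01 and 3.34, in the authors' deposited tables. Stat5b and Stat4, which act downstream of cytokine receptors, were lower against WKY, at 0.460 and 0.415 in the authors' deposited table.

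Of 19 trafficking receptors, which guide lymphocytes out of vessels, 10 were higher against lean and 9 against WKY, with 0 lower in either. Itgb2, the beta chain of LFA-1, had folds of 5.39 and 4.56, and Cxcr4, the chemokine receptor of Cxcl12, 3.48 and 2.77, in the authors' deposited tables. Of 16 ligands, 10 were higher and 1 lower against lean, and 9 higher and 2 lower against WKY. Icam1 and Vcam1, the endothelial ligands of leukocyte integrins, had folds of 5.43 and 6.23 against lean in the authors' deposited table. Of the ligands of Cxcr3, a chemokine receptor of activated T cells, Cxcl9 was higher, with folds of 3.34 and 2.11 in the authors' deposited tables. Cxcr3 itself was listed only against WKY, where the authors' deposited table gave 2.51. Cxcl11, another Cxcr3 ligand, was lower, at 0.154 (adjusted p = 4.85e-22) and 0.099 (adjusted p = 2.20e-32), and Ccl20 stood at 0.325 against WKY, in the authors' deposited tables. Of 22 signalling genes of blood cells in general, 20 were higher against lean and 21 against WKY, with 0 lower.

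**Figure D3:**
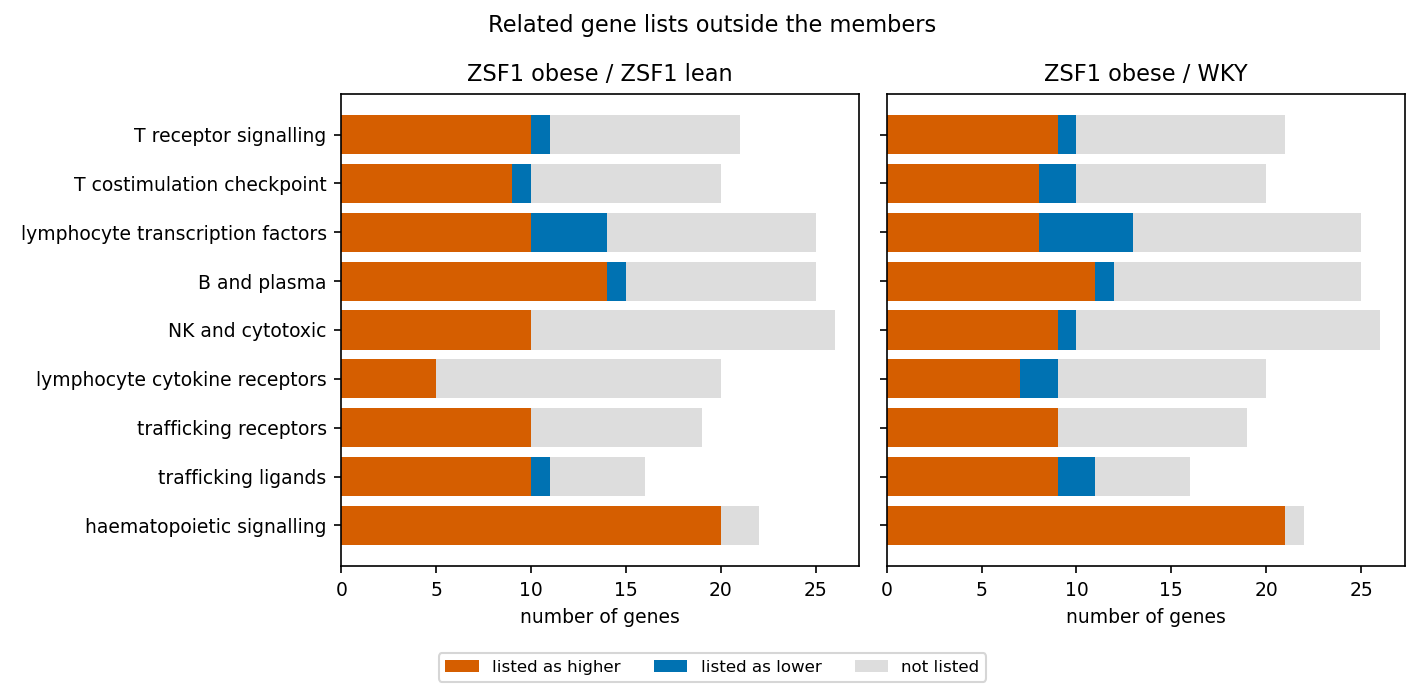
Number of genes listed as higher, listed as lower and not listed in each of 9 lists related to lymphocytes, for obese against lean (left) and obese against WKY hearts (right). Lower genes are most frequent among lymphocyte transcription factors, with 4 of 25 against lean and 5 of 25 against WKY, beside 11.8% and 11.7% of all named RefSeq genes.

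Listed markers of macrophages, neutrophils, dendritic cells, platelets, endothelium and fibroblasts were all higher in both obese comparisons. Those of cardiomyocytes were all lower, and mast cell markers included 1 lower gene against lean. Over all named RefSeq genes, 13.3% were listed as higher against lean and 13.5% against WKY. Macrophage markers were higher for 11 of 12 genes against lean (folds 2.53 to 9.00, median 3.16) and for 12 of 12 against WKY (2.30 to 7.21, median 4.26) in the authors' deposited tables. Dendritic cell markers were higher for 8 and 7 of 10, with medians of 4.18 and 6.54 in the authors' deposited tables. Neutrophil markers were higher for 6 of 10 against lean (median 15.1) and for 2 of 10 against WKY, and 4 of 10 were lower in lean than in WKY hearts in the authors' deposited tables. Mast cell markers gave 3 higher and 1 lower of 10 against lean and 4 higher against WKY, and 1 of 8 platelet markers was higher in both. Endothelial markers were higher for 10 of 12 in both comparisons, and fibroblast markers for 6 and 8 of 12. Cardiomyocyte markers were lower for 6 of 12 in both, among them Ryr2 at 0.344 and Mybpc3 at 0.384 of the lean level in the authors' deposited table. With folds alone, the tissue label could not be checked against marker levels. The part of these cell types in the values of the shared leukocyte genes was not tested.

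**Figure D4:**
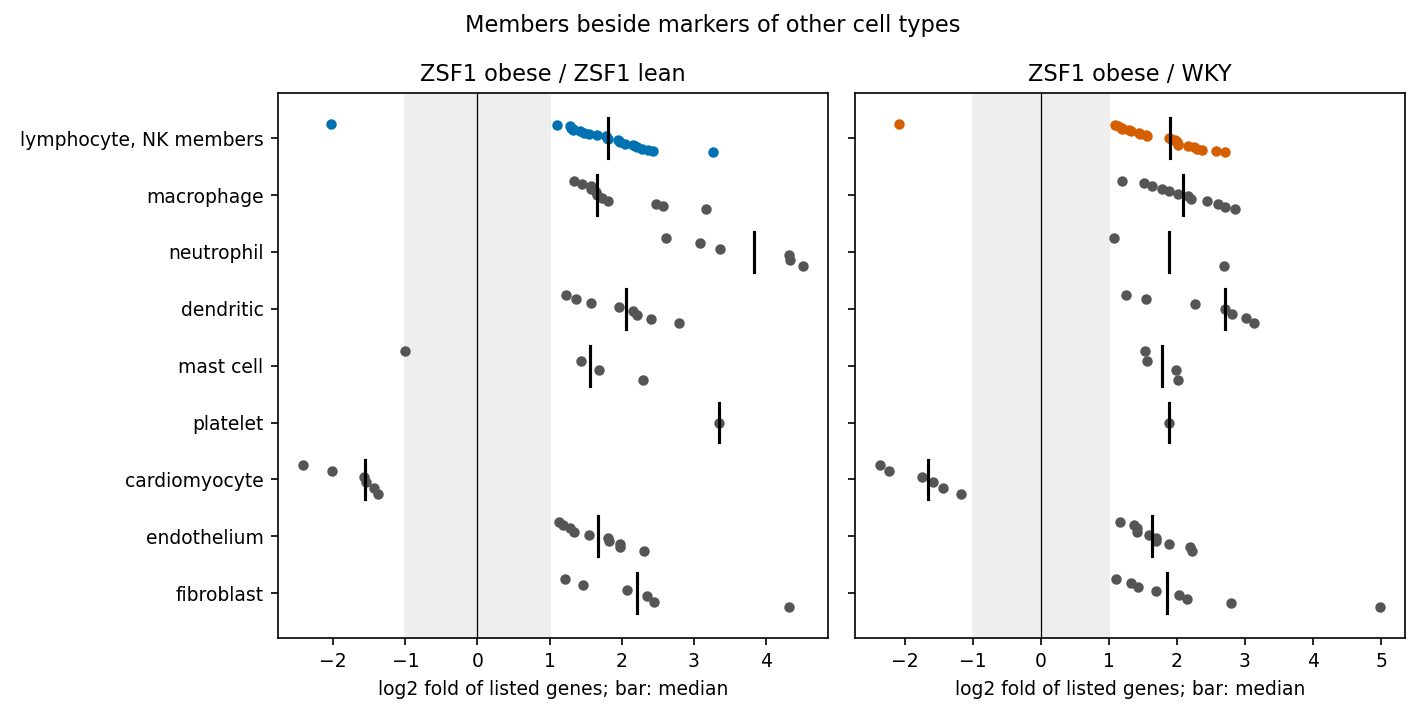
Log2 fold of the listed members and of listed markers of 8 other cell types, one point per gene, with a bar at the median of all listed genes of that list. In both comparisons the listed members, apart from Cd28, lie on the right. So do the listed macrophage, neutrophil, dendritic, platelet, endothelial and fibroblast markers, while the listed cardiomyocyte markers lie on the left.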

How the data were processed

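RNA of the left ventricle of 18 male rats (6 WKY, 6 ZSF1 lean, 6 ZSF1 obese) was isolated with a Qiagen RNeasy kit and made into stranded poly(A) libraries, per the labels' protocols. Per the submitters' processing notes, HISAT2 2.1.0, HTSeq 0.11.2 and DESeq2 1.22.2 were used with Rnor_6.0, with no settings stated. The deposited values are a linear fold (a ratio of group levels) and an FDR, an adjusted p-value, for each gene that passed; both are the authors' and come from 6 rats against 6. Counts, levels per rat and standard errors were not used here, so depth is unknown, no test was run, and leaving out rats or looking for batches was not possible. The labels name no library or sequencing batch, so a batch effect cannot be told apart from the group.

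Members were matched by symbol, each to at most 1 row. Of the 7 members in no table, those with older symbols in RefSeq (Ms4a1 has none) had 0 rows under them. The background is the share of 20972 named RefSeq protein-coding symbols (GRCr8) that a table lists. Members and lists were chosen with earlier results of these data known. Named genes are all 35 members, up to 5 genes per related list and 3 per marker list by adjusted p; Ctla4, Lag3, Cd86 and Nfatc2 against lean, Icos against WKY, Gata3, Foxp3, Pim2, Ctsc, Ikzf3, Ccl20, Cxcl9, Cxcr3, Tnfrsf9 in obese against WKY, Gzmbl2, Ighm, Tcf7 against WKY and the Klr and Ly49 rows were named after their values were seen. Some genes of the lists are not reported here by name. Counting was tested on simulated data. Python 3.11.15 and pandas 2.3.3 were used.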

Additional observations from a re-analysis of the deposited data

How the results depend on the processing

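The tables allow only stricter settings, since genes short of the thresholds are not in them. With an adjusted p under 0.01, 20 of the 35 genes remained on the list in each obese comparison, and under 0.001 there were 18 in each, from 24. Over all listed genes 5463 and 5186 of 5700 passed these limits against lean, and 5436 and 5138 of 5709 against WKY, a smaller loss than among the members. Requiring a 3-fold change in either direction, 16 were left against lean and 14 against WKY, beside 2984 and 3039 of all listed genes. Subtracting the median log2 fold of all listed genes (1.07 and 1.08) left 8 against lean and 7 against WKY, because that median comes from a list without small changes and raises the bar for higher genes; with it 716 of 3371 genes in the first table and 763 of 3388 in the second were higher. Limiting the adjusted p to the range of the lean table, a choice made after the data were seen, gave 17 in each, beside 5060 and 5021 of all listed genes. The count in lean against WKY was 0 under all of these. Cd28 was the 1 lower member in each obese comparison under each setting. No paired analysis was possible because the tables hold no values per rat and the rats of different groups share no numbers in the labels.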
